A study of Homo sapiens and Mus musculus with 24 samples.

Results

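The genes described here are 45 interferon-induced and antigen presentation genes, chosen by symbol and measured in MCF10A, a non-tumorigenic line of human breast epithelium. They were chosen with earlier results of these data known, so contrasts with all genes below are descriptions. They are 45 of the 58434 gene identifiers in the MCF10A tables and take in 362 of 207749 transcripts. By role they are RNA sensors, transcription factors, oligoadenylate synthetases, IFIT, IFITM and Mx proteins, the ISG15 system, other antiviral effectors, other interferon-induced genes and class I antigen presentation genes. The study sequenced RNA of parental MCF10A cells, wild type for PIK3CA, and of a line with a heterozygous knock-in of PIK3CA H1047R (called mutant here), a substitution that makes the PI3K alpha kinase more active. They came as a purchased isogenic pair and received the solvent DMSO or BYL719 (alpelisib, an inhibitor of PI3K alpha) at 1 uM for 4 h. Each of the 4 groups had n = 3 libraries. Each genotype is represented by a single line, so line and genotype cannot be told apart, whether or not each line is a single clone. Nothing in the labels says whether the 3 libraries of a group are separate cultures, so p-values measure only the spread between these libraries, which may be technical.

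In the interferon pathway, secreted interferons bind receptors that activate kinases of the JAK family. Type I and type III interferons lead to a complex containing STAT2 and IRF9 that binds the interferon-stimulated response element (ISRE), and interferon gamma leads to STAT dimers that bind gamma-activated sites (GAS). The genes they induce block viral entry, translation and replication, or cut proteins into peptides, carry them into the endoplasmic reticulum and display them on class I molecules.

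The libraries held 120176951 to 162755399 estimated read pairs, of which the 45 genes took 0.126% to 0.165%. Levels are given as CPM, a gene's count scaled to a common library total, with the standard deviation (SD) over libraries. Because this is bulk RNA, fewer expressing cells and less RNA per cell cannot be told apart. Of the 45 genes, 42 had enough counts to test; OAS2, MX2 and XAF1 did not, with at most 7, 6 and 7 counts in any library. Markers of basal and epithelial cells summed to 10166 to 10445 CPM in parental DMSO and 9046 to 9300.3 CPM in mutant DMSO. Of these 10 markers 7 fell (CDH1, TP63, EPCAM, KRT17, ITGB4, DSG3 and LAMB3) and KRT14 rose in mutant DMSO against parental DMSO, with a median log2 change of -0.33. Under BYL719 6 fell and 1 rose between the lines, and with BYL719 in mutant cells 5 rose and 3 fell. Over all genes 34.2%, 22.3% and 28.3% were called in these comparisons, in the same order. The part of these epithelial markers in the results below was not tested. The 14 markers of blood cells summed to 32.6 to 33.2 CPM and 27.5 to 30.4 CPM, and 8 of them stayed under 0.1 CPM in every library. The leukocyte gene PTPRC was at most 0.0762 CPM, and CLEC4C and HBB were at 0. Of the 6 blood markers tested, CD14 rose and CSF1R fell in mutant DMSO against parental DMSO. With BYL719 in mutant cells CD68 rose, and CD14 and CSF1R fell. Under BYL719 CD68 was higher and CSF1R lower in mutant than in parental cells. What these markers add to the results below was not tested. PIK3CA held 55.9, 59.2 and 58.3 CPM in parental DMSO and 44.3, 33.4 and 42.7 CPM in mutant DMSO (log2 -0.50 with an SE of 0.079, adjusted p = 0.000376); the allele was not analysed here, so this level does not check the genotype. Mutant DMSO replicate 2 stood apart from its group, and values without it are given beside calls that it ends and called values that it moves by over 1.5 times.

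Per length of transcript the genes spanned a wide range. In parental DMSO, B2M, the light chain of class I molecules, was highest at 1077 TPM, followed by IFITM3 at 254 TPM, HLA-C at 212 TPM, HLA-B at 139 TPM and IFITM2 at 121 TPM (a unit scaled for transcript length; means of n = 3). These 5 genes, and no other of the 45, were at 100 TPM or more in each of the 4 groups. At the other end, 16 of the 45 genes were under 1 TPM in parental DMSO and 9 in mutant DMSO.

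The promoters of genes with large changes between the lines are printed first, because many interferon-induced genes are read through an ISRE close to their start. Each line holds the 250 bases before the transcription start, from RefSeq (GRCh38.p14), 5′ to 3′ on the gene's own strand, and capitals mark the ISRE core, GAAA followed by any 2 bases and GAAA, on either strand. SAMD9 and SAMD9L are shown as neighbours that changed in opposite directions.
IFI44L promoter, chr1:78620198-78620447, + strand: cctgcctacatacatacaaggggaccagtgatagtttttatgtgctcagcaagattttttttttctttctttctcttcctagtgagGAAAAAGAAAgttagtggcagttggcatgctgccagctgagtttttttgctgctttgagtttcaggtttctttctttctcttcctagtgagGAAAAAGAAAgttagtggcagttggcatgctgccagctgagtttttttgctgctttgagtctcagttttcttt
IFI44 promoter, chr1:78649539-78649788, + strand: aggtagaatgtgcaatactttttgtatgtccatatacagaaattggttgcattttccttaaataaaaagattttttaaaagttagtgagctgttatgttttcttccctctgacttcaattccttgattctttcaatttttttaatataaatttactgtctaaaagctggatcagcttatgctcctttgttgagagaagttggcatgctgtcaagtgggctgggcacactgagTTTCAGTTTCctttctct
IFI6 promoter, chr1:27672193-27672442, - strand: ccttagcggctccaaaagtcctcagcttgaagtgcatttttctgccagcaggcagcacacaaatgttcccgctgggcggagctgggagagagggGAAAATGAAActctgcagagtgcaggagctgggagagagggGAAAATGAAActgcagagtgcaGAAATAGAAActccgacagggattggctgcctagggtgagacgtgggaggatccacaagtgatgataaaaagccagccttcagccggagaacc
IFIT1 promoter, chr10:89392373-89392622, + strand: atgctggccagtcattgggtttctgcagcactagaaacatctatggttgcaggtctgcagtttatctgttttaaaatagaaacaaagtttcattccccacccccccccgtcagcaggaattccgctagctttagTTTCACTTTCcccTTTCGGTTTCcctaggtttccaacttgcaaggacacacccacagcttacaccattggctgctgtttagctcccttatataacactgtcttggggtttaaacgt
SAMD9 promoter, chr7:93117980-93118229, - strand: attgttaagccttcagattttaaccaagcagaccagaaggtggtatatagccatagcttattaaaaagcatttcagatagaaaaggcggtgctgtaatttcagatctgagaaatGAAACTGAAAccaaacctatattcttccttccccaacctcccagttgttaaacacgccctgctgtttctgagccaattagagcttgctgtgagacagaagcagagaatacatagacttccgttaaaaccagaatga
SAMD9L promoter, chr7:93148386-93148635, - strand: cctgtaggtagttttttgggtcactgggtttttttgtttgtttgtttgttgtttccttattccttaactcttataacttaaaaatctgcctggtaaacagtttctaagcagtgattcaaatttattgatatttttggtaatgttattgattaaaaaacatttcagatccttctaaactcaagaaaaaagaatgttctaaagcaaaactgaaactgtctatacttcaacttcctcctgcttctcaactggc

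The IFI44L window held 2 ISRE cores with the same letters, beginning 164 and 73 bases before the start. IFI44 held 1 core, 18 bases before the start in the window shown, IFI6 held 3 and IFIT1 held 2. SAMD9 held 1 core, and the SAMD9L window held none of these letters. Over windows from 250 bases before to 50 bases after the start, 25 of the 38 genes with a RefSeq window (65.8%) held the ISRE core, against 1195 of all 27305 genes (4.38%). The GAS letters, TTCNNNGAA on either strand, stood in 13 of the 38 (34.2%) against 9.38% of all genes. These genes come from a list of interferon-induced and antigen presentation genes, so shares above those of all genes are no independent finding. The patterns were searched separately and may overlap, and a match of letters does not show that a factor binds.

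Compared with parental cells in DMSO, mutant cells held more RNA of most of these genes. Of the 42 genes tested, 24 rose and 5 fell, 15 and 2 of them by at least 1.5-fold, while 34.2% of all 21079 genes tested were called (17.0% higher, 17.2% lower). The median log2 change was 0.36 over the 42 genes and 0.0049 over all genes. Because earlier results of these data were known when the genes were chosen, these contrasts do not test the list. All 3 mutant libraries lay above all 3 parental ones for 24 of the 42 genes (20.2% of all genes) and below them for 8 (25.5% of all genes). Without mutant DMSO replicate 2, 25 rose and 4 fell, against 38.9% of all genes called. Of the 25 genes with the ISRE core, 14 rose and 3 fell, and of the 12 tested genes whose windows lacked it, 7 rose and 2 fell.

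**Figure D1:**
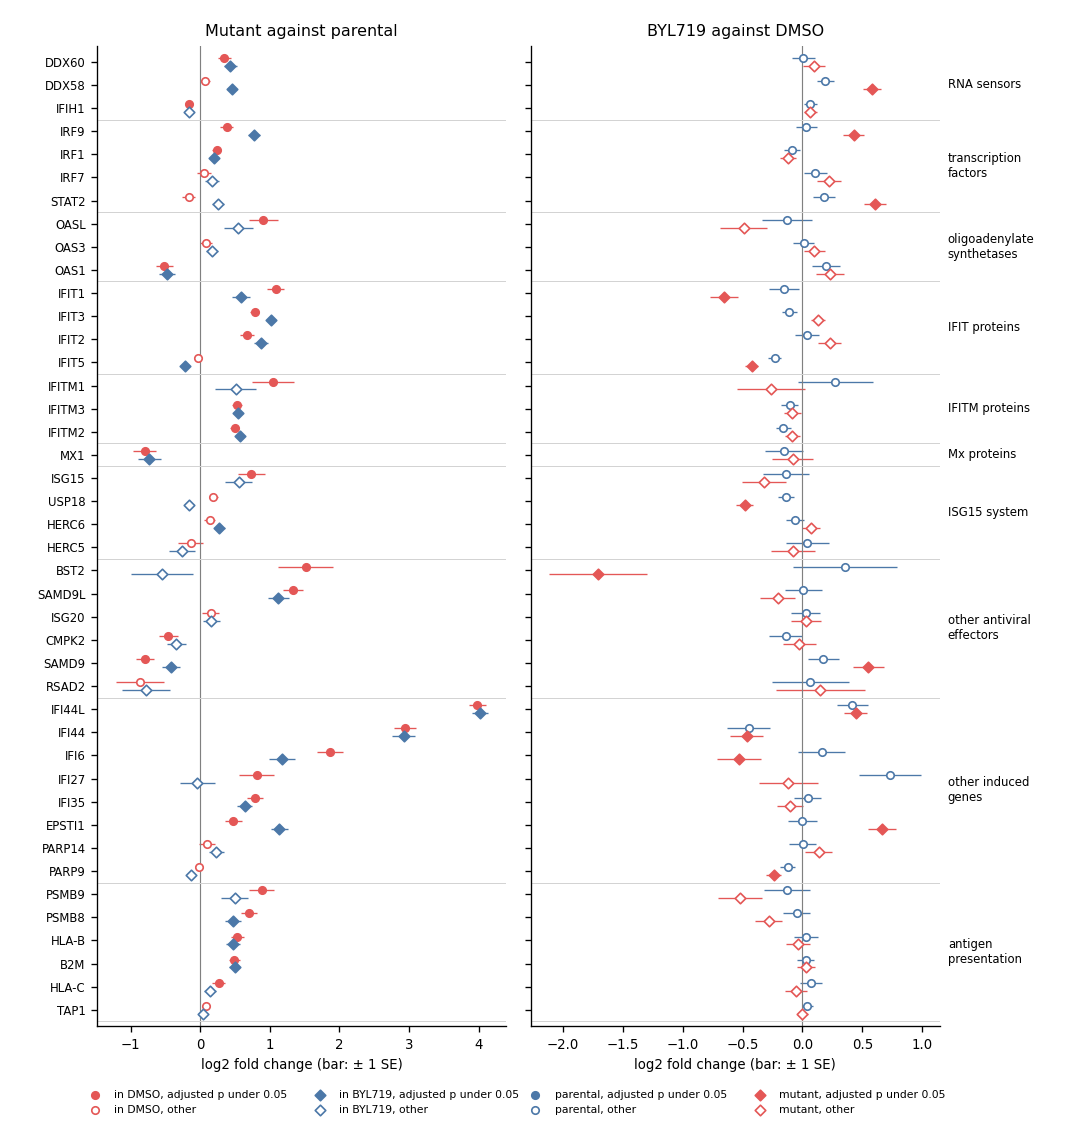
Log2 fold changes of the 42 tested genes, grouped by role, for mutant against parental (left, in DMSO and in BYL719) and BYL719 against DMSO (right, in parental and in mutant cells). Bars are ± 1 SE and filled points have an adjusted p under 0.05; IFI44L and IFI44 stand at the far right of the left panel, and no parental point in the right panel is filled.

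The largest rises were in IFI44L and IFI44, neighbouring genes on chromosome 1 whose RNAs are induced by type I interferon. IFI44L (ENSG00000137959.16, GRCh38 chr1:78619922-78646145, + strand) held 0.504, 0.489 and 0.587 CPM in parental DMSO and 8.07, 7.73 and 8.68 CPM in mutant DMSO. The mutant libraries lay far above the parental ones, a 15.8-fold difference (log2 3.98 with an SE of 0.12, adjusted p = 3.05e-10). IFI44 (ENSG00000137965.11, chr1:78649796-78664078, + strand), which starts 3650 bases past the end of IFI44L, held 0.541, 0.518 and 0.587 CPM against 3.49, 4.84 and 4.07 CPM. Its groups did not overlap either, with a 7.68-fold difference (log2 2.94 with an SE of 0.16, adjusted p = 3.87e-08). IFI6, an inhibitor of cell death and of viral replication (ENSG00000126709.15, chr1:27666061-27672218, - strand), held 1.2, 1.36 and 1.22 CPM in parental DMSO and 3.68, 5.86 and 3.93 CPM in mutant DMSO. It was higher in every mutant library, by 3.64-fold (log2 1.86 with an SE of 0.19, adjusted p = 1.18e-05; log2 1.61 without mutant DMSO replicate 2).

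The IFIT genes encode proteins that bind foreign RNA, and 3 of the 4, all in a cluster on chromosome 10, rose in mutant cells. Over all genes 17.0% rose. IFIT1 held 1.63, 1.66 and 1.89 CPM in parental DMSO and 3.49, 3.97 and 3.33 CPM in mutant DMSO (log2 1.09 with an SE of 0.12, adjusted p = 2.38e-05). IFIT3 held 5.15, 5.78 and 5.64 CPM against 9.33, 9.22 and 9.36 CPM (log2 0.78 with an SE of 0.062, adjusted p = 1.16e-06). The mutant libraries of both genes lay above the parental ones with no overlap. IFIT2 held 1.68, 1.56 and 1.84 CPM in parental DMSO and 2.66, 2.55 and 2.74 CPM in mutant DMSO (log2 0.68 with an SE of 0.099, adjusted p = 0.000215), again without overlap. IFIT5, which starts 8099 bases past the end of IFIT1, did not pass the test, at 13.6 ± 0.469 and 13.1 ± 0.473 CPM (SD, n = 3 each; log2 -0.031 with an SE of 0.054, adjusted p = 0.7).

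The IFITM proteins sit in membranes and hinder the entry of viruses, and all 3 genes rose, where 17.0% of all genes did. IFITM3 went from 76.7 ± 3.15 to 108 ± 9.93 CPM (log2 0.52 with an SE of 0.071, adjusted p = 0.000115) and IFITM2 from 45.5 ± 1.24 to 62.8 ± 3.33 CPM (log2 0.49 with an SE of 0.063, adjusted p = 7.75e-05; SD, n = 3). IFITM1 was far lower in CPM, with 0.154, 0.163 and 0.269 in parental DMSO and 0.269, 0.503 and 0.4 in mutant DMSO (log2 1.04 with an SE of 0.3, adjusted p = 0.0173). Its lowest mutant and highest parental libraries were nearly equal, and its call was lost under 4 of 19 alternative settings, 1 of them without mutant DMSO replicate 2 (adjusted p = 0.0542). The 3 genes are close relatives, and the IFITM2 model overlaps that of IFITM1, so the division of reads among them is uncertain.

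ISG15, a ubiquitin-like protein that is attached to other proteins, held 4.07, 3.98 and 4.49 CPM in parental DMSO and 5.6, 9.56 and 5.26 CPM in mutant DMSO. The mutant libraries were all higher (log2 0.74 with an SE of 0.19, adjusted p = 0.00931), and the highest was replicate 2, without which the log2 change was 0.39 (adjusted p = 0.00157). With only the groups compared in the fit its adjusted p was 0.0638. The other genes of the ISG15 system did not pass the test: USP18, which removes ISG15, had a log2 change of 0.19 (adjusted p = 0.0539), the ligase HERC5 -0.14 (adjusted p = 0.589) and its relative HERC6 0.14 (adjusted p = 0.204; log2 0.24, adjusted p = 0.000561 without mutant DMSO replicate 2).

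Some antiviral effectors were lower in mutant cells. MX1, a GTPase that traps viral nucleocapsids (ENSG00000157601.14, chr21:41420304-41459214, + strand), held 1.29, 1.06 and 1.17 CPM in parental DMSO and 0.713, 0.511 and 0.762 CPM in mutant DMSO. Every mutant library was lower (log2 -0.80 with an SE of 0.16, adjusted p = 0.00246). SAMD9, an antiviral factor, held 114, 117 and 118 CPM in parental DMSO against 77.2, 46.9 and 73.1 CPM in mutant DMSO (log2 -0.80 with an SE of 0.13, adjusted p = 0.000436; log2 -0.61 without mutant DMSO replicate 2). Its paralogue SAMD9L, 12031 bases away on chromosome 7, changed the other way, from 1.57, 1.44 and 1.49 CPM to 4.08, 2.68 and 4.41 CPM (log2 1.33 with an SE of 0.15, adjusted p = 2.49e-05). Neither gene's groups overlapped. Per length, SAMD9 was at 24.2 TPM and SAMD9L at 0.402 TPM in parental DMSO, and at 13.5 and 1.14 TPM in mutant DMSO.

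OAS1, which makes the second messenger that activates RNase L, fell from 1.34 ± 0.0618 to 0.919 ± 0.102 CPM (log2 -0.52 with an SE of 0.12, adjusted p = 0.00476; adjusted p = 0.0726 with effective-length offsets). CMPK2, a mitochondrial nucleotide kinase, fell from 1.69 ± 0.197 to 1.2 ± 0.152 CPM (log2 -0.46 with an SE of 0.14, adjusted p = 0.0207), a call lost under 5 of 19 alternative settings. Its neighbour RSAD2 (viperin), whose model overlaps it, was near the limit of testing at 0.0381 to 0.114 CPM in DMSO and did not pass (log2 -0.87 with an SE of 0.35, adjusted p = 0.0751). OASL, a relative of the oligoadenylate synthetases, went the other way, from 0.627, 0.467 and 0.856 CPM to 1.02, 1.4 and 1.15 CPM (log2 0.91 with an SE of 0.2, adjusted p = 0.00432). OAS3 had a log2 value of 0.081 (adjusted p = 0.523), and of 0.21 (adjusted p = 0.00015) without mutant DMSO replicate 2.

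BST2 (tetherin), which holds budding virus at the cell surface, was close to the limit of testing, at 0.043, 0.0592 and 0.106 CPM against 0.131, 0.244 and 0.2 CPM (log2 1.51 with an SE of 0.4, adjusted p = 0.0114). It reached 10 counts in all 3 libraries of 1 group, mutant DMSO, so it was tested through the group where it was high, and leaving out parental DMSO replicate 1 ended the call (adjusted p = 0.0566). IFI35, a regulator of innate signalling, rose from 5.96, 5.7 and 5.51 CPM to 8.91, 11.6 and 8.42 CPM with no overlap (log2 0.78 with an SE of 0.11, adjusted p = 0.000173). IFI27, a mitochondrial protein, held 0.246, 0.193 and 0.261 CPM against 0.284, 0.496 and 0.423 CPM (log2 0.81 with an SE of 0.26, adjusted p = 0.0286; adjusted p = 0.0937 without mutant DMSO replicate 2), a call lost under 5 of 19 alternative settings. EPSTI1, first known from contact of epithelium and stroma, rose from 1.45 ± 0.154 to 1.97 ± 0.153 CPM (log2 0.47 with an SE of 0.12, adjusted p = 0.00984). The exonuclease ISG20 and the ADP-ribosylation proteins PARP9 and PARP14 had log2 values of 0.15, -0.021 and 0.10 and did not pass; without mutant DMSO replicate 2, PARP14 did (log2 0.26, adjusted p = 0.000161).

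Among antigen presentation genes, 5 of 6 rose in mutant cells in DMSO and none fell, where 34.2% of all genes were called (17.0% higher). B2M (ENSG00000166710.19, chr15:44711487-44718877, + strand) held 341, 352 and 345 CPM in parental DMSO and 443, 541 and 446 CPM in mutant DMSO (log2 0.49 with an SE of 0.074, adjusted p = 0.000255; log2 0.37 without mutant DMSO replicate 2). HLA-B, a class I heavy chain, held 107, 106 and 106 CPM against 136, 179.9 and 136 CPM (log2 0.53 with an SE of 0.098, adjusted p = 0.00112; log2 0.37 without that replicate). HLA-C held 214, 220.3 and 209 CPM against 232, 297 and 228 CPM (log2 0.27 with an SE of 0.091, adjusted p = 0.0401; log2 0.11 without it), and its call was lost under 12 of 19 alternative settings. In each of these genes all mutant libraries were above all parental ones, and replicate 2 was the highest. HLA-B and HLA-C share long stretches of sequence with each other and with other class I heavy chains, which makes the division of their reads uncertain.

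PSMB8 and PSMB9 are catalytic subunits of the immunoproteasome, the form of the proteasome that favours peptides for class I molecules. PSMB8 held 19, 18.7 and 18.2 CPM in parental DMSO and 26.7, 36.8 and 25.5 CPM in mutant DMSO (log2 0.70 with an SE of 0.11, adjusted p = 0.0005; log2 0.50 without mutant DMSO replicate 2). PSMB9 held 0.774, 0.815 and 0.75 CPM against 1.12, 1.91 and 1.19 CPM (log2 0.88 with an SE of 0.19, adjusted p = 0.00294; log2 0.58 without it). Both were higher in every mutant library, although their gene models overlap. TAP1 encodes a subunit of the peptide transporter, and its gene model lies within that of PSMB9, on the opposite strand of chromosome 6. TAP1 did not pass the test, at 37.3, 34.9 and 34.9 CPM against 37.8, 37.8 and 35.9 CPM (log2 0.086 with an SE of 0.047, adjusted p = 0.186).

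Of the 3 RNA sensors 1 rose and 1 fell in mutant cells in DMSO, and of the 4 transcription factors 2 rose. Over all genes 34.2% were called. DDX58 (RIG-I), which detects viral RNA, held 10.9, 11.1 and 9.88 CPM in parental DMSO and 10.7, 10.1 and 12 CPM in mutant DMSO, with overlap (log2 0.068 with an SE of 0.073, adjusted p = 0.515). IFIH1 (MDA5), a sensor of long double-stranded RNA, held 14.8, 15.5 and 15.5 CPM against 14.2, 12.4 and 13.7 CPM (log2 -0.16 with an SE of 0.056, adjusted p = 0.0398), a fall whose call was lost under 12 of 19 alternative settings, 1 of them without mutant DMSO replicate 2 (adjusted p = 0.0708). DDX60, a cofactor of these sensors, rose (log2 0.34 with an SE of 0.093, adjusted p = 0.0127), with overlapping libraries. Its adjusted p was 0.0728 with effective-length offsets and 0.0666 with only the groups compared. IRF9, the DNA-binding partner of STAT2, held 6.83, 6.67 and 5.78 CPM against 7.87, 8.58 and 8.1 CPM and was higher in every mutant library (log2 0.38 with an SE of 0.089, adjusted p = 0.0061). IRF1, a transcription factor of the interferon gamma response, held 17.4, 17.1 and 15.9 CPM against 18.1, 21.1 and 18.9 CPM (log2 0.23 with an SE of 0.066, adjusted p = 0.0153; log2 0.15 without mutant DMSO replicate 2), a call lost under 3 of 19 alternative settings. STAT2 was lower in every mutant DMSO library than in every parental one but did not pass the test, at 38.5, 37.5 and 36.2 CPM against 33.2, 28.9 and 35.8 CPM (log2 -0.17 with an SE of 0.09, adjusted p = 0.172). IRF7, a regulator of interferon genes, did not pass either, at 8, 8.23 and 7.82 CPM against 7.54, 9.61 and 7.32 CPM (log2 0.055 with an SE of 0.098, adjusted p = 0.705).

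**Figure D2:**
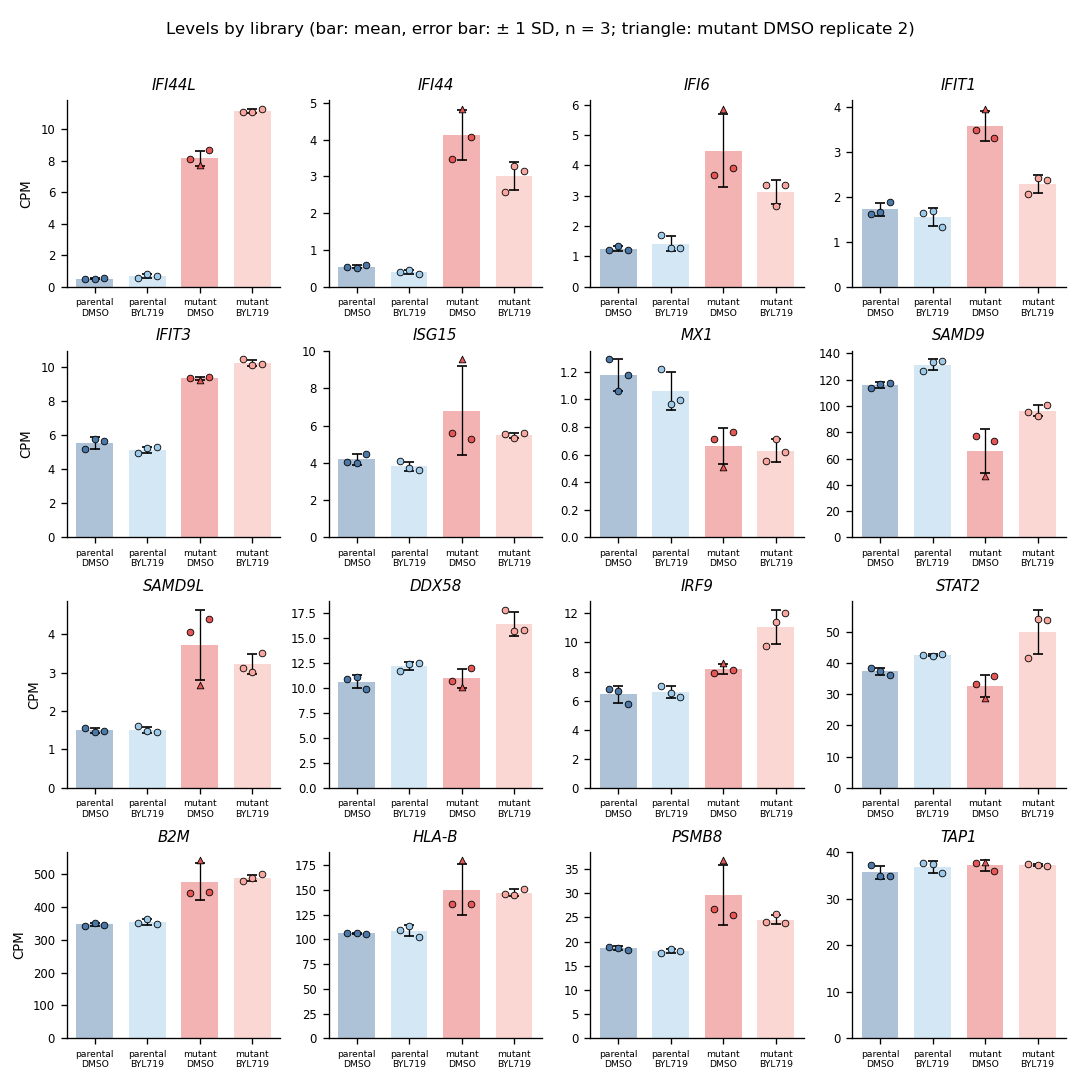
CPM of 16 genes in each library, with the mean (bar) and ± 1 SD over n = 3 libraries for the 4 groups; the triangle is mutant DMSO replicate 2. IFI44L lies at or under 0.842 CPM in every parental library and at or above 7.73 CPM in every mutant library, whereas MX1 and SAMD9 are lower in mutant cells.

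Interferon RNA itself was scarcely detected. Of 21 interferon genes, 14 had no count in any of the 12 libraries, IFNB1 among them, which allows at most 0.00186 CPM over the libraries together (counting error only). IFNE, an interferon of epithelia, was the highest, at most 0.220 CPM, and did not pass the test in any comparison. Among 16 receptor and JAK-STAT signalling genes, 4 rose and 1 fell in mutant cells in DMSO, a share near the 34.2% of all genes called. SOCS1 (log2 1.02 with an SE of 0.25, adjusted p = 0.00774) and SOCS3 (log2 0.55 with an SE of 0.086, adjusted p = 0.000336), inhibitors of JAK signalling, were among those that rose. IFNLR1, a chain of the type III interferon receptor, fell, with 7.31, 7.23 and 7.21 CPM in parental DMSO and 2.35, 2.17 and 2.8 CPM in mutant DMSO (log2 -1.54 with an SE of 0.086, adjusted p = 5.31e-08). The receptor chains IFNAR1 and IFNGR1 had log2 values of 0.024 (adjusted p = 0.804) and 0.0094 (adjusted p = 0.896).

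Other genes of the same pathways were counted from lists. Of 39 further interferon-induced genes tested, 18 rose and 4 fell in mutant cells in DMSO, where 34.2% of all genes were called. APOL1, an apolipoprotein of innate defence, rose most, from 0.258 ± 0.0172 to 1.77 ± 0.0512 CPM (6.98-fold; log2 2.80 with an SE of 0.15, adjusted p = 3.9e-08), followed by PARP10 (log2 0.82 with an SE of 0.13, adjusted p = 0.000407) and the GTPase GBP1 (log2 0.78 with an SE of 0.05, adjusted p = 1.88e-07). Those that fell most were the cytidine deaminase APOBEC3F (log2 -2.56 with an SE of 0.57, adjusted p = 0.00438, on 16 counts in mutant DMSO), the death ligand TNFSF10 (log2 -1.71 with an SE of 0.11, adjusted p = 1.27e-07) and the GTPase GBP2 (log2 -0.88 with an SE of 0.088, adjusted p = 9.19e-06). APOBEC3F was tested through groups where it was higher than in mutant DMSO, so its fall from parental DMSO is no support. Without mutant DMSO replicate 2 the APOBEC3F value was -4.34. Of 15 further class I genes tested, 8 rose and none fell, among them the immunoproteasome subunit PSMB10 (log2 0.73 with an SE of 0.16, adjusted p = 0.00308; log2 0.44 without that replicate) and NLRC5, the transactivator of class I genes (log2 0.42 with an SE of 0.087, adjusted p = 0.00275). TAP2, the partner of TAP1, rose less (log2 0.18 with an SE of 0.044, adjusted p = 0.00733).

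Of 18 nucleic acid sensing genes tested, 6 rose and 1 fell in the same comparison, a share near the 34.2% of all genes called. The DNA sensor CGAS (log2 0.40 with an SE of 0.066, adjusted p = 0.000502), the Toll-like receptor adaptor TICAM1 (log2 0.28 with an SE of 0.071, adjusted p = 0.00878) and the nucleotide hydrolase SAMHD1 (log2 0.21 with an SE of 0.049, adjusted p = 0.00502) rose most, and the ligase TRIM25 fell (log2 -0.23 with an SE of 0.064, adjusted p = 0.0139; log2 -0.15 without mutant DMSO replicate 2). DHX58, a regulator of RIG-I, had a log2 value of 0.025 (adjusted p = 0.933). Of 3 constitutive proteasome subunits, 1 rose, PSMB5 (log2 0.27 with an SE of 0.091, adjusted p = 0.0348; log2 0.12 without that replicate). Class II genes were scarce: 7 of 10 stayed under 0.1 CPM in every library, and none of the 3 tested passed edgeR's test in any comparison.

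**Figure D3:**
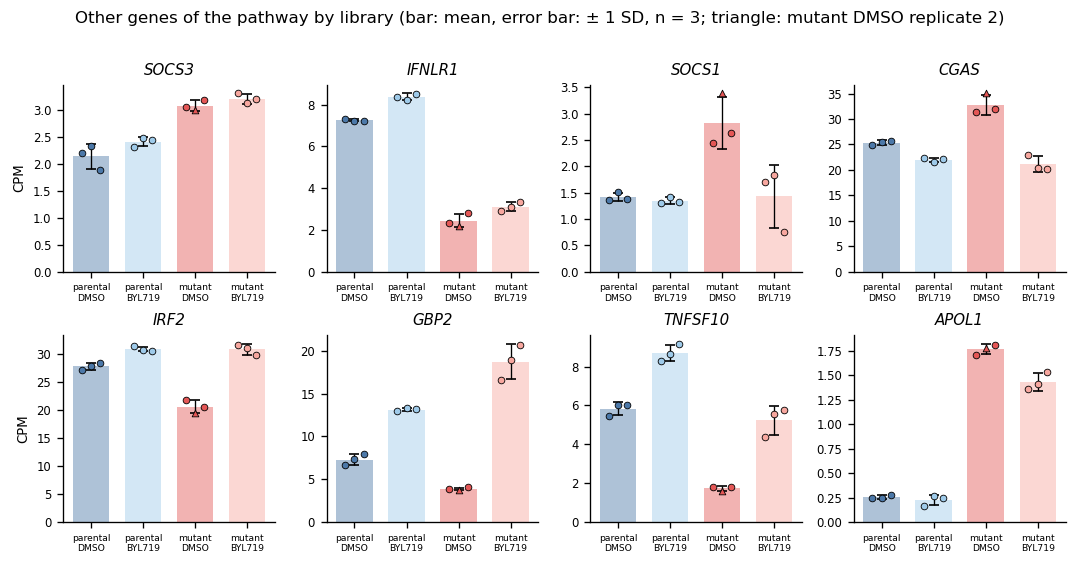
CPM of 8 other genes of the pathway in each library, with the mean (bar) and ± 1 SD over n = 3 libraries; the triangle is mutant DMSO replicate 2. GBP2 and TNFSF10 are lowest in mutant DMSO, and APOL1 is at or above 1.36 CPM in every mutant library and at or under 0.277 CPM in every parental one.

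In parental cells, BYL719 changed none of the 42 genes by edgeR's quasi-likelihood test, where 1.43% of all genes were called. At an unadjusted p under 0.05, 3 were higher and 3 lower, and DESeq2 called 0 higher and 1 lower, IFIT5 (log2 -0.24, adjusted p = 0.00294). The median log2 change was 0.018 over the 42 genes and 0.0057 over all genes. Without mutant DMSO replicate 2, which is in neither group but adds to the shared spread, 1 gene rose, SAMD9 (log2 0.17, adjusted p = 0.0108), and 2 fell, IFIT5 (log2 -0.24, adjusted p = 0.00748) and IFITM2 (log2 -0.16, adjusted p = 0.0249), with 9.17% of all genes called. With only the 2 groups compared in the fit, 4 rose (DDX58, STAT2, SAMD9 and IFI27) and 4 fell (IFIT5, IFITM2, IFITM3 and PARP9). That fit called far more of all genes as well, 1673 higher and 1811 lower, against 178 and 124 in the main fit. IFI44L held 0.591, 0.842 and 0.665 CPM in parental BYL719, IFIT1 1.64, 1.69 and 1.34 CPM and B2M 351, 363 and 347 CPM. Of the 39 further interferon-induced genes, 2 rose, GBP2 from 7.31 ± 0.636 to 13.1 ± 0.178 CPM (log2 0.84 with an SE of 0.085, adjusted p = 0.000428) and TNFSF10 from 5.83 ± 0.338 to 8.7 ± 0.432 CPM (log2 0.57 with an SE of 0.098, adjusted p = 0.0127). Leaving out mutant DMSO replicate 2, 3 rose and 3 fell.

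In mutant cells, 6 of the 42 genes rose and 7 fell with BYL719, a share of 31% against 28.3% of all genes (15.1% higher, 13.2% lower), so the share called lay near that of all genes. The median log2 change was -0.046 over the 42 genes and 0.019 over all genes. Without mutant DMSO replicate 2, 9 rose and 6 fell, against 32.4% of all genes. STAT2, DDX58, IRF9, EPSTI1, SAMD9 and IFI44L were the 6 that rose. STAT2 held 33.2, 28.9 and 35.8 CPM in mutant DMSO and 41.6, 54.1 and 53.9 CPM in mutant BYL719 (log2 0.61 with an SE of 0.09, adjusted p = 0.000381). DDX58 held 10.7, 10.1 and 12 CPM against 17.8, 15.7 and 15.7 CPM (log2 0.58 with an SE of 0.073, adjusted p = 0.000106), and IRF9 held 7.87, 8.58 and 8.1 CPM against 9.74, 11.4 and 12 CPM (log2 0.43 with an SE of 0.088, adjusted p = 0.00339). The treated libraries of these 3 genes were all above the DMSO ones. EPSTI1 rose from 2.02, 2.08 and 1.79 CPM to 2.85, 3.42 and 3.1 CPM (log2 0.66 with an SE of 0.12, adjusted p = 0.00136). SAMD9, lower in mutant cells, rose with BYL719 to 95.8, 92.4 and 101 CPM (log2 0.55 with an SE of 0.13, adjusted p = 0.00698; log2 0.35 without mutant DMSO replicate 2; adjusted p = 0.0672 with only the groups compared), still under every parental library.

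The 7 that fell were IFIT1, IFIT5, USP18, BST2, IFI6, IFI44 and PARP9. IFIT1 went from 3.49, 3.97 and 3.33 CPM to 2.07, 2.43 and 2.38 CPM (log2 -0.66 with an SE of 0.12, adjusted p = 0.00156). BST2 went from 0.131, 0.244 and 0.2 CPM to 0.0514, 0.0533 and 0.0701 CPM (log2 -1.70 with an SE of 0.41, adjusted p = 0.00843), on 76 and 24 counts over the 3 libraries of each group. It was tested only through mutant DMSO, where it was high, so its fall from that group is no support. Neither gene's treated libraries overlapped with the DMSO ones. USP18 (log2 -0.48 with an SE of 0.07, adjusted p = 0.000297), IFIT5 (log2 -0.42 with an SE of 0.055, adjusted p = 0.00013) and PARP9 (log2 -0.24 with an SE of 0.061, adjusted p = 0.0116; adjusted p = 0.0887 with only the groups compared) also fell. IFI6 fell to 3.35, 2.65 and 3.36 CPM (log2 -0.53 with an SE of 0.18, adjusted p = 0.0462), a call lost under 12 of 19 alternative settings, with a log2 of -0.29 and an adjusted p of 0.122 without mutant DMSO replicate 2.

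The neighbours IFI44L and IFI44 had changes of opposite sign under BYL719. In mutant cells IFI44L rose to 11.1, 11.1 and 11.3 CPM (log2 0.44 with an SE of 0.095, adjusted p = 0.00415), while IFI44 fell to 2.58, 3.28 and 3.16 CPM (log2 -0.47 with an SE of 0.14, adjusted p = 0.0251). In parental cells the log2 values were 0.41 (SE 0.13, adjusted p = 0.173) for IFI44L and -0.45 (SE 0.18, adjusted p = 0.306) for IFI44, so neither passed the test there. The mutant calls were not firm: IFI44L had an adjusted p of 0.236 with effective-length offsets. IFI44 had one of 0.0524 without mutant DMSO replicate 2, and was also lost without mutant BYL719 replicate 1 (0.0673) or 3 (0.0519). It was also lost with only the groups compared.

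None of the antigen presentation genes passed edgeR's test with BYL719 in either line. B2M held 480.1, 487 and 498 CPM in mutant BYL719, HLA-B 146, 145 and 151 CPM, HLA-C 246, 239 and 249 CPM and TAP1 37.5, 37.2 and 37.2 CPM. PSMB8 (24.1, 25.6 and 23.9 CPM; log2 -0.28, adjusted p = 0.0848) and PSMB9 (0.91, 1.01 and 1.03 CPM; log2 -0.52, adjusted p = 0.0512) had values below those in DMSO. Mutant DMSO replicate 2 moved these values: without it the log2 changes were -0.10 and -0.23, and B2M (log2 0.13, adjusted p = 0.00342) and HLA-B (log2 0.11, adjusted p = 0.0341, against -0.039 with it) passed the test as higher. Of 15 further class I genes, 2 rose, TAPBP (log2 0.20 with an SE of 0.059, adjusted p = 0.0239; log2 0.12 without that library) and HLA-E (log2 0.16 with an SE of 0.052, adjusted p = 0.0387), and 1 fell, NLRC5 (log2 -0.37 with an SE of 0.087, adjusted p = 0.00806). When that library was left out, 5 rose and 1 fell. Over all genes 28.3% were called with it and 32.4% without it.

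Of 16 receptor and signalling genes, 4 rose and 1 fell with BYL719 in mutant cells, a share near the 28.3% of all genes called. Those that rose were JAK1 (log2 0.41 with an SE of 0.091, adjusted p = 0.00546; log2 0.26 without mutant DMSO replicate 2), IFNGR1 (log2 0.35 with an SE of 0.045, adjusted p = 0.000141), IFNLR1 (log2 0.34 with an SE of 0.087, adjusted p = 0.0113) and IFNAR1 (log2 0.33 with an SE of 0.063, adjusted p = 0.00205). SOCS1 was the 1 that fell, to 1.71, 1.84 and 0.743 CPM from 2.45, 3.39 and 2.63 CPM (log2 -0.99 with an SE of 0.25, adjusted p = 0.0118). When mutant DMSO replicate 2 was left out, 5 rose and 2 fell. Of 39 further interferon-induced genes, 6 rose and 6 fell, again near the 28.3% of all genes. Leaving out the same library, 7 rose and 12 fell, against 32.4% of all genes. GBP2 rose most, from 3.9 ± 0.148 to 18.7 ± 2.04 CPM (log2 2.26 with an SE of 0.089, adjusted p = 1.75e-08), then TNFSF10 from 1.75 ± 0.139 to 5.24 ± 0.733 CPM (log2 1.58 with an SE of 0.11, adjusted p = 8.61e-07) and TRANK1 (log2 0.92 with an SE of 0.13, adjusted p = 0.000278). The checkpoint ligand CD274 (log2 -0.48 with an SE of 0.14, adjusted p = 0.0239), the GTPase GBP3 (log2 -0.37 with an SE of 0.052, adjusted p = 0.000257) and the antibody receptor TRIM21 (log2 -0.29 with an SE of 0.066, adjusted p = 0.00607) fell most. Of 18 sensing genes, 4 rose and 4 fell. With mutant DMSO replicate 2 left out, 3 rose and 6 fell. Among those that rose were the DNA sensor IFI16 (log2 0.25, adjusted p = 0.0012), the adaptor MAVS (log2 0.21, adjusted p = 0.0197; log2 0.12 without that library) and the RNA receptor TLR3 (log2 0.28 with an SE of 0.096, adjusted p = 0.0469), which did not pass without it (log2 0.14, adjusted p = 0.0675). Those that fell were led by CGAS (log2 -0.64 with an SE of 0.066, adjusted p = 2.49e-05), TICAM1 (log2 -0.31, adjusted p = 0.00582) and the transcription factor IRF3 (log2 -0.31, adjusted p = 0.0457), whose call was also lost without it (log2 -0.17, adjusted p = 0.0653). Of 5 fibroblast markers tested, LUM and COL1A2 rose with BYL719 in mutant cells and none fell. Leaving out mutant DMSO replicate 2, 1 rose. LUM was also higher in mutant than in parental cells under BYL719. The 6 markers of the list summed to 17.9 to 31.7 CPM in mutant BYL719 and 22.5 to 24.7 CPM in mutant DMSO. In mutant BYL719 replicate 3, COL1A2 and COL3A1 were at 4.33 and 2.12 CPM, against at most 0.306 and 0.157 CPM in the other groups. The part of these markers in the results was not tested.

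The difference between the BYL719 effects of the lines was itself tested, as mutant minus parental. None of the 42 genes passed edgeR's quasi-likelihood test, where 2.87% of all genes were called (2.08% higher, 0.797% lower); 5 were higher and 6 lower at an unadjusted p under 0.05. DESeq2 called 3 higher, DDX58 (log2 0.37, adjusted p = 0.0203), STAT2 (log2 0.41, adjusted p = 0.0263) and EPSTI1 (log2 0.64, adjusted p = 0.0138), and 1 lower, USP18 (log2 -0.36, adjusted p = 0.0175). Without mutant DMSO replicate 2, edgeR called DDX58 (adjusted p = 0.0414), EPSTI1 (0.0193) and IRF9 (0.0292) higher and USP18 (0.0424) lower, with 8.71% of all genes called. For other genes of the pathway the difference passed with all libraries. GBP2 (log2 1.42 with an SE of 0.12, adjusted p = 9.01e-05), TNFSF10 (log2 1.01 with an SE of 0.14, adjusted p = 0.0029), IRF2 (log2 0.42 with an SE of 0.069, adjusted p = 0.00686) and SP100 (log2 0.22 with an SE of 0.053, adjusted p = 0.0452) had the higher log2 change in mutant cells, and CGAS the lower one (log2 -0.43 with an SE of 0.093, adjusted p = 0.03).

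The lines were also compared under BYL719, so the 2 groups compared were other than those in DMSO. The spread behind the p-values was estimated from all 12 libraries in both comparisons, so their calls are not independent. Mutant cells held more of 19 and less of 4 of the 42 genes, against 22.3% of all genes called (11.4% higher, 10.9% lower), and the median log2 change was 0.35 over the 42 genes and 0.013 over all genes. Without mutant DMSO replicate 2, 27 rose and 8 fell, against 34.6% of all genes. Of the 24 genes that rose in DMSO, 17 (70.8%) also rose under BYL719, 89.5% of those that rose there; among all genes these shares were 46.1% and 68.5%. Of the 5 that fell in DMSO, MX1, SAMD9 and OAS1 fell again. IFI44L (log2 4.01 with an SE of 0.11, adjusted p = 2.52e-10) and IFI44 (log2 2.93 with an SE of 0.16, adjusted p = 6.42e-08) again had the largest changes. IFI6 (log2 1.17 with an SE of 0.19, adjusted p = 0.000608), EPSTI1 (log2 1.13 with an SE of 0.12, adjusted p = 1.86e-05), SAMD9L (log2 1.12 with an SE of 0.15, adjusted p = 0.000132) and IFIT3 (log2 1.02 with an SE of 0.062, adjusted p = 1.22e-07) followed, and IFIT2 (log2 0.87, adjusted p = 3.37e-05), IRF9 (log2 0.77, adjusted p = 3.76e-05), IFI35 (log2 0.64, adjusted p = 0.00108), IFIT1 (log2 0.58, adjusted p = 0.00401) and DDX58 (log2 0.46, adjusted p = 0.000496) rose as well. IFITM2 (log2 0.56, adjusted p = 2.97e-05), IFITM3 (log2 0.54, adjusted p = 0.000102), DDX60 (log2 0.43, adjusted p = 0.00471), HERC6 (log2 0.27, adjusted p = 0.0257) and IRF1 (log2 0.20, adjusted p = 0.0454) were the others outside antigen presentation. The HERC6 and IRF1 calls were lost under 7 and 16 of 19 alternative settings. The DDX60 call was lost with effective-length offsets (adjusted p = 0.0817).

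Under BYL719 the antigen presentation genes B2M (log2 0.49 with an SE of 0.074, adjusted p = 0.000318), HLA-B (log2 0.47 with an SE of 0.098, adjusted p = 0.00386) and PSMB8 (log2 0.47 with an SE of 0.11, adjusted p = 0.0106) were higher in mutant cells. PSMB8 had an adjusted p of 0.0551 without parental BYL719 replicate 1. HLA-C (log2 0.14, adjusted p = 0.339), PSMB9 (log2 0.49, adjusted p = 0.0887) and TAP1 (log2 0.043, adjusted p = 0.598) did not pass. Mutant DMSO replicate 2 adds only to the shared spread here, and leaving it out brought HLA-C to an adjusted p of 0.0074 and PSMB9 to 0.00588. MX1 held 1.22, 0.969 and 0.994 CPM in parental and 0.55, 0.716 and 0.617 CPM in mutant BYL719, with no overlap (log2 -0.73 with an SE of 0.17, adjusted p = 0.00649), and OAS1 (log2 -0.48 with an SE of 0.12, adjusted p = 0.00924), SAMD9 (log2 -0.42 with an SE of 0.13, adjusted p = 0.0326) and IFIT5 (log2 -0.22 with an SE of 0.055, adjusted p = 0.0102) were also lower. The SAMD9 call was lost under 8 of 19 alternative settings. The IFIT5 call was lost without mutant BYL719 replicate 3 (adjusted p = 0.0515). Among the other genes of the pathway, APOL1 (log2 2.67 with an SE of 0.15, adjusted p = 8.46e-08), TRANK1 (log2 0.77 with an SE of 0.13, adjusted p = 0.000825) and LGALS3BP (log2 0.68 with an SE of 0.044, adjusted p = 2.19e-07) rose, and IFNLR1 (log2 -1.40 with an SE of 0.085, adjusted p = 1.16e-07), APOBEC3F (log2 -2.26 with an SE of 0.59, adjusted p = 0.0144) and TNFSF10 (log2 -0.71, adjusted p = 0.00018) fell. APOBEC3F was tested through groups where it was higher than in mutant DMSO, so its fall here is no support either. Beside 22.3% of all genes called, 6 of the 16 receptor and signalling genes rose and 1 fell, among the former SOCS3 (log2 0.44, adjusted p = 0.00227) and IFNAR1 (log2 0.29, adjusted p = 0.00499). Of the 18 sensing genes 5 rose and none fell, led by TLR3 (log2 0.35, adjusted p = 0.018), the adaptor TMEM173 (log2 0.32, adjusted p = 0.000229) and SAMHD1 (log2 0.28, adjusted p = 0.0011). Of the 15 further class I genes 4 rose, among them the peptidase ERAP2 (log2 0.32, adjusted p = 0.00339) and TAPBP (log2 0.23, adjusted p = 0.0136). When mutant DMSO replicate 2 was left out, 6 rose and 2 fell of the sensing genes, and 9 rose and 1 fell of the class I genes, against 34.6% of all genes.

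Transcripts of some genes took different shares of the gene's counts in the lines, as divided by the authors' software. MX1-203 took 21.2% to 47.5% of MX1 counts in parental DMSO and 57.3% to 86.2% in mutant DMSO, without overlap. Under BYL719 it took 23.7% to 74.5% in parental and 50.3% to 88.2% in mutant libraries, which overlapped. IFIT2-202 took none of the IFIT2 counts in the parental DMSO libraries and 38.6% to 45.6% in the mutant ones. Under BYL719 it again took none in parental libraries and 19.5% to 50.7% in mutant ones. Protein-coding transcripts took a mean of 34.3% of IRF9 counts in parental DMSO and 46.8% in mutant DMSO. Under BYL719 these means were 33.9% and 49.5%. For B2M, B2M-212, which is annotated as subject to nonsense-mediated decay, took 47.3% in parental DMSO, so the split among B2M transcripts is doubtful. The sum of counts over the gene does not depend on this split, but its TPM and effective length do. These shares are estimates and were not tested.

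Mutant DMSO replicate 2 differed from the other libraries of its group with transcript length. Over the 42 genes its deviation on the log2(CPM + 0.1) scale had a Spearman rho of -0.80 with effective length, and over all 21079 genes -0.44; the genes share this library, and these values are descriptions. In the libraries of the other 3 groups the 42 genes gave values from -0.21 to 0.23. ISG15, PSMB9 and B2M, which are short, were higher in that library, and SAMD9, PARP14 and OAS3, which are long, were lower.

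**Figure D4:**
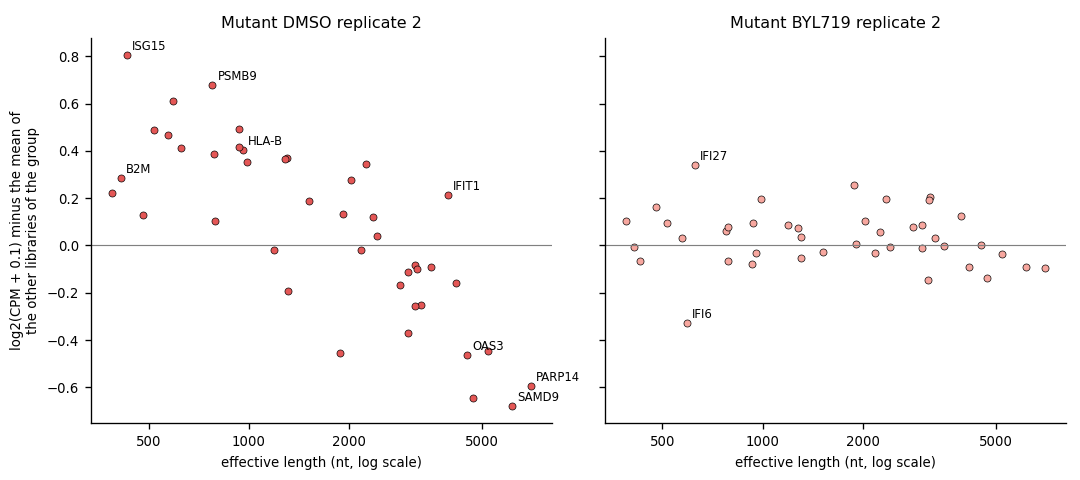
Deviation of a library from the mean of the other libraries of its group, on the log2(CPM + 0.1) scale, against effective length in nucleotides (log axis) for the 42 tested genes. Each point is a gene; for mutant DMSO replicate 2 (left) the points fall with length (rho -0.80), and for mutant BYL719 replicate 2 (right) they slope less (rho -0.21).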

How the data were processed

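RNA-seq of 12 MCF10A libraries was used; the 12 mouse fibroblast libraries of the series were not used here. Per the file headers, the authors' deposited tables give each transcript an estimated count (expected count), TPM and an effective length, 1 table per library. Per the submitters' processing notes, Trim Galore 0.6.1, cutadapt, Salmon 1.2.1 and DESeq2 1.28.1 were named, with GRCh38; strandedness and RNA selection were not given in the sources used here. Reads from overlapping or antisense genes may therefore not be told apart.

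Estimated counts were summed per gene identifier and rounded. CPM is a gene's count scaled by the library total, and 10 counts correspond to 0.0614 to 0.0832 CPM. TPM, summed per gene, was used to compare levels between genes. Genes were filtered with filterByExpr (minimum count 10), and edgeR 4.0.16 was fitted to all 12 libraries (TMM, robust quasi-likelihood test, 8 residual degrees of freedom, two-sided) in R 4.3.3, with Benjamini-Hochberg adjustment over 21079 genes. A gene rose or fell where its adjusted p was under 0.05. The code was tested on simulated data. Alternatives were DESeq2 1.42.0, other scalings, no filter, effective-length offsets, a replicate block, only the groups compared, and each library left out.

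Per-library values are given for genes called with at least 1.5-fold change and for a fixed set of central genes; of the other pathway lists, the 3 largest calls in each direction and some fixed genes are named. Some genes that this rule names are not reported here; the counts over the lists include them. The members and lists were chosen with earlier results of these data known. Coordinates are from GENCODE v29 (GRCh38), and promoters from RefSeq (GRCh38.p14), which matched 38 of 45 genes.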

Additional observations from a re-analysis of the deposited data

Results flagged for a closer look

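For 5 of the other pathway genes listed and for PIK3CA, the BYL719 effect differed between mutant and parental cells by the test of the difference itself (edgeR, mutant minus parental). Over all 21079 genes tested, 606 passed this test, and of the cell type markers TP63 and CD68 did. The log2 differences were 1.42 for GBP2 (adjusted p = 9.01e-05), 1.01 for TNFSF10 (adjusted p = 0.0029), 0.56 for PIK3CA (adjusted p = 0.0198), 0.42 for IRF2 (adjusted p = 0.00686), 0.22 for SP100 (adjusted p = 0.0452) and -0.43 for CGAS (adjusted p = 0.03). Both lines had values of the same sign for each of these 6 genes, and the larger one was in mutant cells.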

How the results depend on the processing

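Of 65 calls of the 42 genes over the comparisons, 44 were kept under all 19 alternative settings and 21 were lost under at least 1; the cause was not tested. For mutant against parental in DMSO, 5 genes fell, against 2 with effective-length offsets and 3 with only the groups compared. For BYL719 in parental cells, 4 rose and 4 fell with only the groups compared, and 1 fell with DESeq2. In CPM all treated libraries lay above all DMSO ones for 8 of the 42 genes (16.6% of all genes). They lay below them for 7 (14.9% of all genes). On the TPM scale 5 genes, in place of 8, were higher in every treated library. For BYL719 in mutant cells, 4 in place of 7 fell with only the groups compared. For the difference of the BYL719 effects, DESeq2 called 3 higher and 1 lower in place of 0. Leaving out 1 library at a time gave 20 to 25 genes that rose and 3 to 5 that fell for mutant against parental in DMSO, 0 to 1 and 0 to 2 for BYL719 in parental cells, 6 to 9 and 5 to 11 for BYL719 in mutant cells, 16 to 27 and 2 to 8 for mutant against parental in BYL719, and 0 to 3 and 0 to 1 for the difference. Without parental DMSO replicate 3, or without mutant DMSO replicate 3, 3 genes fell for mutant against parental in DMSO. In mutant cells, 11 fell with BYL719 without mutant DMSO replicate 1. Without mutant BYL719 replicate 3, 2 fell for mutant against parental in BYL719. Without mutant BYL719 replicate 1, 1 fell with BYL719 in parental cells and 1 was higher in the difference. Leaving out mutant DMSO replicate 2, 1 rose and 2 fell with BYL719 in parental cells, 8 fell for mutant against parental in BYL719, and 3 were higher and 1 lower in the difference. HLA-B reversed for BYL719 in mutant cells, with a log2 of 0.11 (adjusted p = 0.0341, edgeR) without mutant DMSO replicate 2. Over all genes, calls for BYL719 in parental cells went from 178 higher and 124 lower to 1673 and 1811 with only the groups compared, and to 906 and 1067 without mutant DMSO replicate 2.

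Same-numbered libraries of different groups had correlations of deviations from -0.07 to 0.08. Libraries with unlike numbers were not compared, so these values do not settle whether replicate numbers pair the samples. With the replicate number as a block, 24 rose and 4 fell for mutant against parental in DMSO, 0 and 0 for BYL719 in parental cells, 6 and 7 for BYL719 in mutant cells, 18 and 4 for mutant against parental in BYL719, and 0 and 0 for the difference.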
